A study of Mus musculus with 15 samples.

Results

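Ccl24, Ccl9 and Ccl6 are CC chemokine genes, 3 of the 561 genes counted on the nCounter Mouse Immunology Panel in mouse spleen. They were chosen by earlier readings of the same counts: Ccl24 was selected on its rise against Sham, the largest of any gene tested, and Ccl9 and Ccl6 were selected on their higher counts where a burn was added to irradiation. The comparisons that chose a gene are therefore given for it as a description. The values of Ccl9 and Ccl6 in WBIR against Sham are descriptions too, since the WBIR samples entered the choice. Tests are read for the burn in Ccl24 and for the vesicles in all 3 genes, comparisons that the choice did not use although they share its samples.

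The samples were 15 spleen RNA preparations from female C57BL/6J mice of 6 to 8 weeks, in 5 groups of 3. Sham mice had neither injury. Mice labelled WBIR (whole-body ionizing radiation) were irradiated with 9 Gy from a cesium source. Mice labelled RCI (radiation combined injury) had a full-thickness contact burn over 20% of the body surface together with the same dose. The WBIR+MSC-EVs and RCI+MSC-EVs groups were injected intravenously 72 hours after the injury with extracellular vesicles (EVs) from cultured C57BL/6J bone marrow mesenchymal stem cells (MSCs), and spleens were taken 48 hours later. The untreated groups received saline alone by the study's account, and the labels name phosphate buffered saline for the RCI group only. The methods describe anesthesia, morphine and fluid for the burn procedure and not for irradiation alone. Under the burn model they state that sham groups were handled identically apart from the burn and the irradiation. Where RCI is compared with WBIR, these treatments cannot be told apart from the burn. Where WBIR is compared with Sham, their absence may not be told apart from the irradiation. The labels and methods do not settle whether the 3 replicates of a group were 3 mice, so the p-values measure only the spread between these samples, which may be technical. Red blood cells were lysed before RNA was prepared from the spleen suspension. Total barcode counts ranged from 90127 to 598872 per sample, and WBIR+MSC-EVs replicate 1 had the lowest.

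CC chemokines are small secreted proteins that draw leukocytes along a gradient by binding G protein-coupled receptors. Ccl24, or eotaxin-2, acts through Ccr3, the receptor carried by eosinophils, and is made by macrophages. Ccl9 and Ccl6 are made by macrophages and other myeloid cells and bind Ccr1, which was not analysed here. In the spleen, macrophages filter the blood and take up dying cells, and irradiation depletes the lymphocytes that make up most of the organ.

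By the gene order that RefSeq gives for GRCm38.p6, Ccl24 is on chromosome 5 beside Ccl26 and Rhbdd2. Ccl9 and Ccl6 are next to each other on chromosome 11, in the order Ccl5, Ccl9, Ccl6, Ccl3. The 250 bases upstream of the start of Ccl9 and of Ccl6, from the same RefSeq build, are printed here, since Ccl9 and Ccl6 are the members with higher counts under the burn. Both lie on the minus strand and are written 5′ to 3′ toward the gene. The capitals mark GGAAGT, a form of the ETS motif, here read on the opposite strand as ACTTCC.
Ccl9, chr11:83578637-83578886, minus strand: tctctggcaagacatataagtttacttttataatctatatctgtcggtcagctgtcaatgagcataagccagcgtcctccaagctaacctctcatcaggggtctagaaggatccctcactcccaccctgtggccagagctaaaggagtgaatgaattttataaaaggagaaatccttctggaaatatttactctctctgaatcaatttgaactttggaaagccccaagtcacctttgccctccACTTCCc
Ccl6, chr11:83593088-83593337, minus strand: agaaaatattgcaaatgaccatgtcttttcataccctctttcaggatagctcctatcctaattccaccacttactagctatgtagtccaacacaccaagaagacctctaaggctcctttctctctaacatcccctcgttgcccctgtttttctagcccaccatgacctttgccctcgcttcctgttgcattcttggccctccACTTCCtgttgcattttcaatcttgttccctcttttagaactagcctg

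The letters GGAAGT occurred once in each, starting at position -7 in Ccl9 and at position -48 in Ccl6, counted from the base before the transcription start. The shorter ETS core GGAA, on either strand, also occurs elsewhere in both windows and was not counted. Of the 32851 promoters of the same length in the table, 19.7% held that motif on either strand. The longest run of bases shared by both promoters was 13 bases and contained the motif, starting at -14 in Ccl9 and at -55 in Ccl6. Over the whole alignment, 146 of 292 positions were identical, or 50%. The AP-1 motif TGANTCA occurred once in Ccl9 and not in Ccl6, against 6.75% of all promoters. The letters of the TATA box, TATAAA, occurred 3 times in Ccl9 on both strands together and not in Ccl6, against 12.4% of all promoters. Neither held the STAT motif TTCNNNGAA, found in 7.02% of promoters, or the C/EBP motif TTGCNNAA, found in 9.56%. These matches describe the letters in these windows only.

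Ccl24 was close to the bottom of the counting range in Sham and high in 11 of the 12 irradiated samples. Values are barcode counts scaled to the geometric mean of the panel's 14 reference genes. The 3 Sham samples had 11.6, 22.1 and 25.3, from raw counts of 14, 9 and 33. Ccl24 had 2668, 2600 and 2750 in WBIR, the tightest of the groups for this gene, with a mean of 2672 ± 75.0 (SD, n = 3) against 19.7 ± 7.18 in Sham. With MSC-EVs, the WBIR+MSC-EVs samples had 2075, 4849 and 2665. All 6 samples irradiated without a burn stood above every Sham sample. Of all genes tested, 71.1% did not overlap between WBIR and Sham, and 69% between WBIR+MSC-EVs and Sham. In bulk RNA, more cells of a type and more RNA per cell cannot be told apart.

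The RCI samples had 3210, 4659 and 166 scaled counts of Ccl24, and RCI+MSC-EVs samples had 3049, 4313 and 1792. RCI replicate 3, at 166, was far below every other irradiated sample and still above all of Sham. Of all genes, 64.6% did not overlap between RCI and Sham, and 70.4% between RCI+MSC-EVs and Sham. Without a test, since this rise chose the gene, the edgeR log2 fold changes against Sham were 7.10 in both WBIR and RCI, and with vesicles 7.36 after WBIR and 7.29 after RCI. The first of these is a 137-fold difference in scaled counts. The next gene below it was Cdkn1a at 4.70 in WBIR and Ccl2 at 4.97 in RCI.

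**Figure D1:**
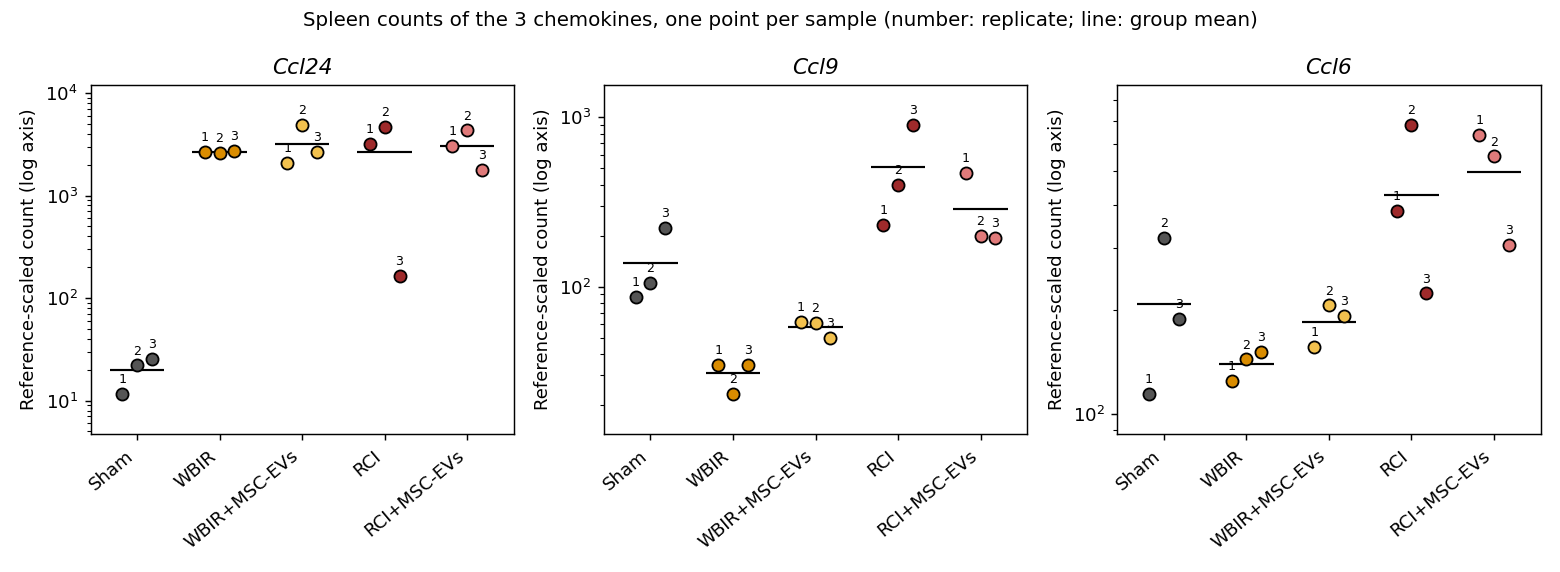
Scaled barcode counts of Ccl24, Ccl9 and Ccl6 (vertical axis, log scale) in each sample of the 5 groups, with the replicate number beside each point and a line at the group mean. Ccl24 lies at 11.6 to 25.3 in Sham and at 1792 or above in all irradiated samples but RCI replicate 3, at 166, whereas Ccl9 is at 23.3 to 34.7 in WBIR and at 232 or above in RCI.

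The comparison with the burn did not choose Ccl24, and no difference between the injuries was shown for it. RCI against WBIR gave a log2 fold change of 0.00 ± 0.73 (SE), with a 95% interval of -1.57 to 1.57 and an adjusted p of 0.998 by edgeR's quasi-likelihood test. The direction of this difference turned under 12 of 27 other settings, and without RCI replicate 3 it was 0.56, with an adjusted p of 0.457. In the vesicle-treated groups, RCI+MSC-EVs against WBIR+MSC-EVs gave -0.07, with an interval of -1.64 to 1.5. With 3 samples a group, differences inside these intervals are not excluded, and the intervals are no limit of detection.

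Ccl9 counts lay below Sham after irradiation alone, and above it in RCI without vesicles. The Sham samples had 87.0, 105 and 223 scaled counts. In WBIR, the counts were 34.7, 23.3 and 34.5, from raw counts of 27, 23 and 41, and all lay below the lowest Sham sample. In WBIR+MSC-EVs, they were 61.8, 61.2 and 50.04, from raw counts of 21, 109 and 91, again below all of Sham and above all of WBIR.

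As a description, the edgeR log2 fold change of Ccl9 in WBIR against Sham was -2.17 ± 0.53 (SE). Of all 426 genes tested, 68.5% were called in WBIR against Sham, 46.9% of all genes were called lower, and 71.1% did not overlap between the groups, so that a called fall was common there. Sham replicate 3 was the highest of its group, and without it the log2 fold change was -1.63. With TMM scaling it was -1.61. In WBIR+MSC-EVs against Sham, also a description since these samples entered the choice, it was -1.28 ± 0.51 (SE), in a comparison where 67.8% of genes were called and 69% did not overlap. Without Sham replicate 3 it was -0.74, and with TMM scaling it was -0.82.

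Where the burn was added, Ccl9 counts were high. The RCI samples had 232, 398 and 896, and each lay above every Sham and WBIR sample. The RCI+MSC-EVs samples had 470, 199 and 195, all above both WBIR groups and overlapping with the highest Sham sample. In the comparisons that chose the gene, the log2 fold change was 4.04 in RCI against WBIR and 2.33 in RCI+MSC-EVs against WBIR+MSC-EVs, and Ccl9 was first of 426 genes by fold in both. The gene next below it was Ccl2 at 3.16 in RCI against WBIR, a value that was 1.30 without RCI replicate 3. In RCI against WBIR, edgeR called 0.704% of the genes tested (3 of 426, which were Ccl9, C4a and Il1r1), and 27% did not overlap. Without RCI replicate 3, its highest sample, the log2 fold change of Ccl9 was 3.35. In RCI+MSC-EVs against WBIR+MSC-EVs, edgeR called 0% of the genes, although 43 had an unadjusted p under 0.05, DESeq2 called 2 and 29.8% did not overlap. Against Sham, the log2 fold change of Ccl9 was 1.87 in RCI, without overlap, as for 64.6% of all genes. It was 1.05 where RCI was treated with vesicles, with overlap, a 95% interval of -0.00983 to 2.10 and no call.

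Ccl6 overlapped with Sham after irradiation alone and had its highest counts where the burn was added. The Sham samples had 114, 321 and 188 scaled counts, a range that took in all 6 samples irradiated without a burn. These had 124.8, 144 and 151 in WBIR and 156, 206 and 192 in WBIR+MSC-EVs. With the burn, the RCI samples had 385, 678 and 223, and the RCI+MSC-EVs samples had 637, 552 and 308. RCI replicate 3, at 223, was the lowest of the 6 burned samples.

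By edgeR, and as a description, the log2 fold change of Ccl6 against Sham was -0.55 ± 0.42 (SE) in WBIR and -0.14 ± 0.42 in WBIR+MSC-EVs, neither of them called. Their 95% intervals ran from -1.45 to 0.35 and from -1.04 to 0.75. The sign depended on the scaling, since TMM scaling gave 0.16 and 0.46. In the comparisons that chose it, Ccl6 was higher by 1.61 on the log2 scale in RCI against WBIR and by 1.43 in RCI+MSC-EVs against WBIR+MSC-EVs. It ranked 21 and 3 of 426 genes there. Its groups overlapped in neither, where 27% and 29.8% of all genes did not overlap. Against Sham it was higher by 1.06 in RCI and by 1.28 where RCI was treated with vesicles, with overlap in both, and the calls were lost in 7 and 4 of 27 other settings. Of all genes tested, 69.5% were called in RCI against Sham, with 64.6% not overlapping, and 65.3% in RCI+MSC-EVs against Sham, with 70.4% not overlapping.

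**Figure D2:**
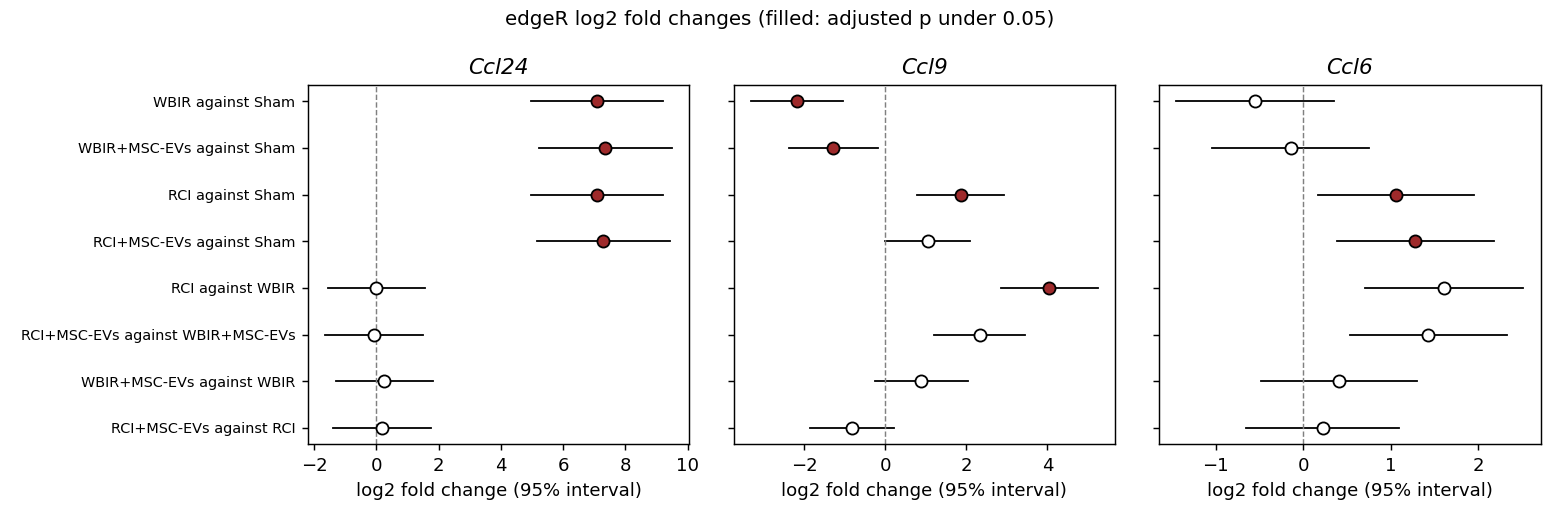
The edgeR log2 fold changes of Ccl24, Ccl9 and Ccl6 (horizontal axis, with 95% intervals) in 8 comparisons, filled where the adjusted p was under 0.05. Ccl24 stands near 7 in each comparison with Sham and near 0 in all others, and Ccl9 runs from -2.17 in WBIR against Sham to 4.04 in RCI against WBIR. Filled points in the comparisons with Sham, and for Ccl9 in RCI against WBIR, rest on values that chose the genes and are no test of them.

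The MSC-EV comparisons did not choose the genes, and none of the chemokines was called in them. Ccl24 was higher by 0.26 on the log2 scale in WBIR+MSC-EVs than in WBIR (95% interval -1.31 to 1.83) and by 0.19 in RCI+MSC-EVs than in RCI (-1.38 to 1.76). Without RCI replicate 3 the latter was -0.37, and without WBIR+MSC-EVs replicate 2, the highest sample, the former was -0.17. The vesicle effect on Ccl24 averaged over both injuries was 0.22, with an edgeR adjusted p of 0.984.

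For Ccl9, the treated samples were higher than the untreated ones in WBIR and mostly lower in RCI. In scaled counts, all 3 WBIR+MSC-EVs samples stood above all 3 WBIR samples, with a log2 fold change of 0.89 (95% interval -0.25 to 2.03, edgeR adjusted p 0.997). Replicate 1 of WBIR+MSC-EVs, the sample with the lowest total, had 21 raw counts, below the 27, 23 and 41 of WBIR. Its place above WBIR rests on the scaling, with no background subtracted. The groups of 8.92% of all genes did not overlap in that comparison, and Ccl9 ranked 4 of 426 by fold. In RCI, the log2 fold change was -0.82 (-1.86 to 0.22, adjusted p 0.989) and the groups overlapped, as did those of most genes, since 10.8% did not. Without RCI replicate 3 it was -0.13. The difference between both effects was -1.71 ± 0.72 (SE), with a 95% interval of -3.26 to -0.17, an unadjusted p of 0.0320 and an adjusted p of 0.998 by edgeR. It did not pass the correction over the 426 genes, and without RCI replicate 3 it was -1.02.

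For Ccl6, all 3 WBIR+MSC-EVs samples were above all 3 WBIR samples in scaled counts, with a log2 fold change of 0.41 (95% interval -0.49 to 1.30, edgeR adjusted p 0.997). Here too WBIR+MSC-EVs replicate 1 was below all of WBIR in raw counts, with 53 against 97, 142 and 179. The groups of 8.92% of all genes did not overlap there. In RCI the vesicle effect was 0.22 (-0.65 to 1.10), and without RCI replicate 3 it was -0.09. EdgeR called 0% of the genes tested in either vesicle comparison, in the effect averaged over the injuries and in the difference between the effects. Unadjusted p-values under 0.05 numbered 11 in WBIR, 14 in RCI, 14 for the average and 11 for the difference, and DESeq2 called 0, 0, 1 and 0 genes.

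Ccr3, the receptor of Ccl24, was high in the same samples. Its scaled counts were 146, 58.8 and 53.8 in Sham and 812, 1745 and 1618 in WBIR. RCI had 1709, 1704 and 167, so that replicate 3 was low for the receptor as for the ligand. Vesicle-treated samples had 821, 2055 and 1531 in WBIR+MSC-EVs and 1597, 1799 and 1005 in RCI+MSC-EVs. All were above Sham, with which 69% and 70.4% of all genes did not overlap in these groups. Its log2 fold change against Sham was 3.99 ± 0.74 (SE, adjusted p 0.000302 by edgeR) in WBIR and 3.77 ± 0.74 (adjusted p 0.000433) in RCI. Under the other scalings it lay between 4.10 and 4.54 in WBIR and between 3.59 and 4.02 in RCI. In RCI against WBIR it was -0.22, with an adjusted p of 0.925.

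Over the 12 irradiated samples, Ccr3 and Ccl24 had a Pearson r of 0.95 and a Spearman rho of 0.755 on the log2 scale. Without RCI replicate 3, r was 0.722, and without the 2 samples farthest from the median of Ccl24, RCI replicate 3 and WBIR+MSC-EVs replicate 2, it was 0.668. These samples share their scaling and 4 treatment groups, so the value is a description. Ccr3 was the only gene of the eosinophil list in the table, and how far Ccr3 counts follow eosinophils was not tested. The other eotaxin genes stayed low, with raw counts of 2 to 23 for Ccl11 and of 1 to 12 for Ccl26, the neighbor of Ccl24, and neither passed the filter on low counts.

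**Figure D3:**
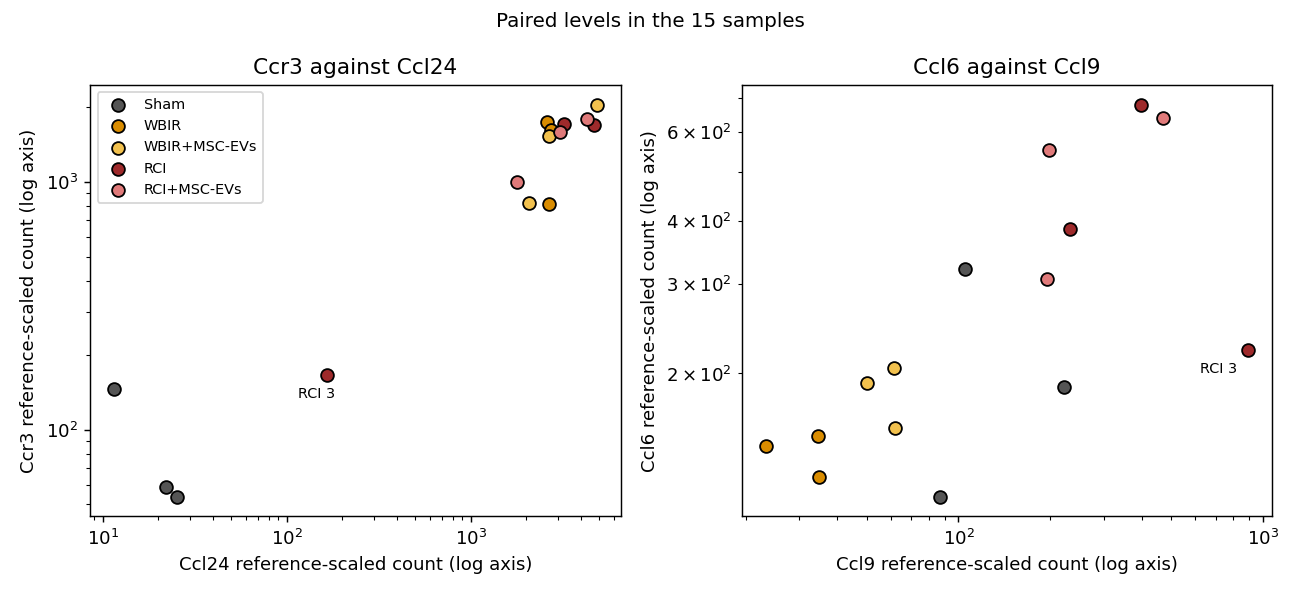
Scaled counts of Ccr3 against Ccl24 (left) and of Ccl6 against Ccl9 (right), both axes on a log scale, with a point for each of the 15 samples colored by group. RCI replicate 3 lies apart in both, with 166 counts of Ccl24 and 167 of Ccr3 on the left and the highest Ccl9, 896, at a Ccl6 of 223 on the right.

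Ccl9 and Ccl6, the neighbors, had an r of 0.761 and a rho of 0.839 over the 12 irradiated samples, and an r of 0.957 without RCI replicate 3. Both were chosen for the same difference between the injuries, which enters that value. With each group's mean removed, r was -0.171. That value includes RCI replicate 3, with the highest Ccl9 (896) and the lowest Ccl6 (223) of the RCI samples. It was not computed without that sample, so its sign may rest on it. The genes that flank the pair were not called in RCI against WBIR. Ccl5, an attractant of T cells, was lower in RCI than in WBIR by a log2 fold change of -1.12 (adjusted p 0.172 by edgeR), and Ccl3, an attractant of monocytes, was higher by 1.25 (adjusted p 0.398). The Ccl3 value rests on RCI replicate 3, at 229 scaled counts against 34.1 and 31.2 in the others, and without it was -0.35. Whether either differed from Ccl9 or Ccl6 was not tested. Ccl24 had an r of 0.244 with Ccl6 and of -0.413 with Ccl9, and without RCI replicate 3 these were 0.482 and 0.309, so that the second turned its sign. With group means removed and RCI replicate 3 included, r was 0.831 with Ccl6 and -0.61 with Ccl9. These too were not computed without that sample.

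The genes whose log2 counts were most like each chemokine over the 12 irradiated samples were ranked by Pearson r. For Ccl24 they were Mr1 (0.967), Litaf (0.954), Fcgr3 (0.953) and H2-DMa (0.952). These values rest in part on RCI replicate 3, without which they were 0.73, 0.789, 0.884 and 0.694. For Ccl9 they were Il1r1 (0.956), Lilra6 (0.897), Il6st (0.892) and Ctnnb1 (0.871), and without that sample they were 0.941, 0.852, 0.871 and 0.932. With group means removed and RCI replicate 3 included, r was 0.603 for Il1r1, 0.595 for Lilra6, 0.0609 for Il6st and -0.179 for Ctnnb1. Ccl9 and Ccl6 were chosen for the difference between the injuries, which enters their r where group means were kept. Il1r1 was itself called in RCI against WBIR. For Ccl6 they were Stat3 (0.953), Bcap31 (0.941), Il6ra (0.922) and Map4k2 (0.898). With group means removed and RCI replicate 3 again included, these were 0.836, 0.829, 0.886 and 0.758.

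RCI replicate 3 stood apart from the other RCI samples well beyond these chemokines, with 118 of 426 genes more than 2-fold from the mean of replicates 1 and 2. On the log2 scale Ccl24 was lower there by -4.54, the lowest of all genes tested, and Ccr3 by -3.36. Ccl6 differed by -1.20, whereas Ccl9 was higher by 1.56, Ccl2 by 3.18 and Ccl12 by 2.78. Of the 9 macrophage markers, 5 were below all other irradiated samples there, among them the hemoglobin scavenger receptor Cd163 at 93.2 against 549 to 1741. In the same sample, 2 were above all others, Cd14 and the scavenger receptor Marco, the latter at 27540 against 3187 to 8513. Without it, the Ccl24 log2 fold change in RCI against Sham was 7.66, that of Ccl9 was 1.17 and that of Ccl6 was 1.38.

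Among the CC chemokine ligands, 16 were in the table and 10 passed the filter, the chosen 3 among them. In WBIR against Sham, 2 of the 10 were called higher (Ccl24 and Ccl19) and 1 lower (Ccl9), where 21.6% of all genes were called higher. In RCI against Sham, 6 were called higher and 1 lower, where 26.5% of all genes were called higher and 43% lower. The median log2 fold change of the 10 was 0.46 in WBIR and 1.84 in RCI, against -0.74 and -0.53 over all genes. These medians are descriptions, since they include the chosen 3, and medians without the 3 were not computed. With RCI replicate 3 left out, the medians of the 10 were 0.47 and 1.28, against -0.73 and -0.49 over all genes. Apart from the chosen 3, 1 of 7 was called higher in WBIR, and 3 higher and 1 lower in RCI. The higher calls among these 7 are descriptions, since the genes passed the filter on low counts through the irradiated samples. Without RCI replicate 3, over the same 10 genes, 3 were called higher and 1 lower in WBIR, and 6 and 1 in RCI. Ccl2 was among those called higher in both. TMM scaling gave 3 higher and 1 lower in WBIR, and 8 higher and 1 lower in RCI. Scaling to the 7 least variable reference genes gave 5 higher in RCI, where Ccl6 was not called.

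The called ligands outside the chosen 3 were Ccl2, Ccl12, Ccl19 and Ccl5. Ccl2, which draws monocytes through Ccr2, had 2.49, 4.90 and 5.38 scaled counts in Sham, 20.6, 8.10 and 16.0 in WBIR and 27.8, 45.5 and 322 in RCI, so that RCI replicate 3 was the highest by far. Ccl19, a lymphoid tissue chemokine and a ligand of Ccr7, was higher than Sham by 2.07 on the log2 scale in WBIR and by 2.39 in RCI. Ccl12, another monocyte attractant, was higher by 3.00 in RCI, with 26.9, 64.7 and 287 scaled counts that overlapped with Sham. With RCI replicate 3 left out, the log2 fold change against Sham was 1.53 for Ccl12, still called by edgeR, and 3.10 for Ccl2. The filter on low counts was not reapplied there. That sample's 552 raw counts of Ccl2, against at most 45 in any other sample, helped the gene pass it. The calls of Ccl2 are therefore a description. Ccl5 was lower in RCI by -1.80. Ccl2, Ccl12 and Ccl19 had fewer than 20 scaled counts on average in Sham. Raw Sham counts were 10, 15 and 13 for Ccl12 and 17, 11 and 21 for Ccl19. Both passed the filter through the irradiated samples, so their calls against Sham are descriptions too. In RCI against WBIR, Ccl9 was the only ligand called by edgeR, and DESeq2 also called Ccl6, Ccl2 and Ccl12.

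**Figure D4:**
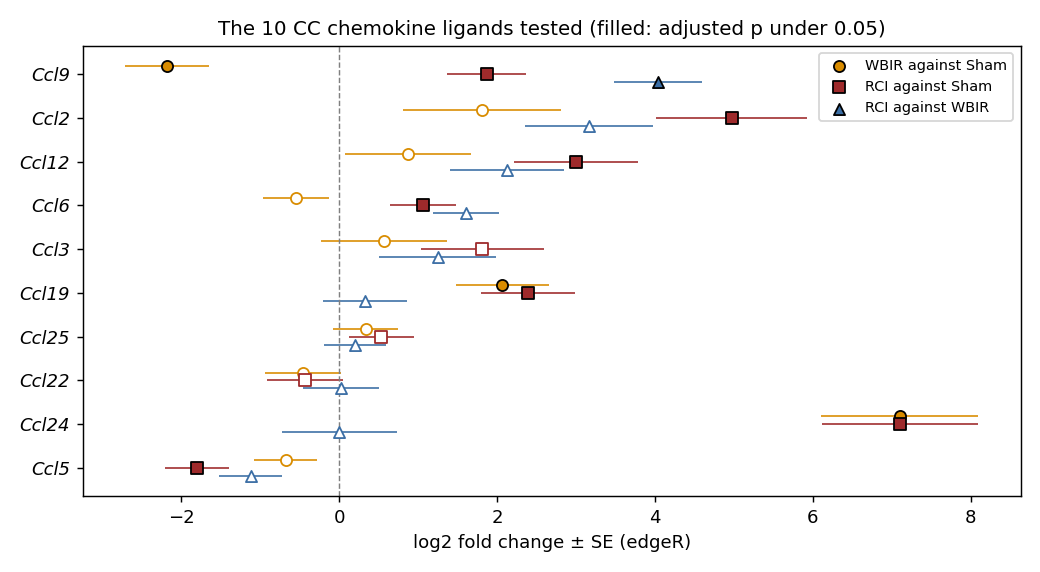
The edgeR log2 fold changes of the 10 CC chemokine ligands tested (horizontal axis, bars are SE), ordered by RCI against WBIR, in that comparison and in each injury against Sham, filled where the adjusted p was under 0.05. Ccl9 lies at -2.17 in WBIR and at 1.87 in RCI against Sham, and Ccl24 lies at 7.10 in both. Filled points of Ccl24, Ccl9 and Ccl6 rest on values that chose these genes and are no test of them. Those of Ccl2, Ccl12 and Ccl19 are descriptions, since these genes passed the filter on low counts through the irradiated samples.

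Of the chemokine ligands outside the CC family, 6 of 11 were tested, and 4 were called higher in WBIR and 5 in RCI against Sham, with none lower. RCI had 4 without its replicate 3. Among the chemokine receptors, 14 of 20 were tested. In WBIR against Sham, 3 were called higher (Ccr3, Cx3cr1 and Cmklr1, the chemerin receptor) and 8 lower, and in RCI 3 higher and 9 lower. Over all genes, the shares were 21.6% higher and 46.9% lower in WBIR, and 26.5% and 43% in RCI, which also stand beside the marker and type 2 lists. The lower receptors in both included Cxcr5 and Ccr7, which lymphocytes use to enter follicles and T cell zones. Ccr2, the receptor of Ccl2 on monocytes, had a log2 fold change of -1.35 ± 0.46 (SE, adjusted p 0.0181 by edgeR) in RCI against Sham. That call was lost without RCI replicate 3 (-1.16, adjusted p 0.0635) and with TMM (-0.75), median-of-ratios (-0.74) and total count scaling (-0.94). TMM scaling gave 4 higher and 5 lower in WBIR, and 3 and 8 in RCI.

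Macrophage markers were higher after both injuries, and no macrophage or monocyte marker was called in RCI against WBIR by edgeR, while DESeq2 called 1 of the 9 macrophage markers. The 9 macrophage markers summed to between 2977 and 6418 scaled counts in Sham, to between 21160 and 36040 in WBIR and to between 37340 and 42790 in RCI. With vesicles the sums were 22500 to 45430 after WBIR and 34830 to 40280 after RCI. The 3 RCI sums lay above the 3 WBIR sums, but Marco made up 64.4% of the sum in RCI replicate 3. Without Marco, the sums were 34150, 33770 and 15250 in RCI and 17440, 30010 and 30420 in WBIR, and RCI replicate 3 was below all of WBIR. In WBIR against Sham, 8 of the 9 were called higher, and in RCI also 8, with no marker lower. In RCI against WBIR their median log2 fold change was 0.32, and 0.0175 to 0.0917 under the other scalings. Ccl9 counts in WBIR lay below Sham while the macrophage sums lay above it. The part of macrophages in the counts of the 3 chemokines was not tested.

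Of 6 neutrophil markers, 5 were tested and 4 were called lower in each injury, and the 6 summed to 7143 to 40420 in Sham, 1526 to 4773 in WBIR and 1322 to 1823 in RCI. All 6 B cell markers were called lower in both, with sums of 15320 to 16410 in Sham and of at most 1094 in any irradiated sample. All 7 T cell markers were called lower in both as well. Of 3 NK cell markers tested, 1 was called lower in WBIR and 2 in RCI, and of 3 dendritic cell markers 1 was called higher and 1 lower in each. Platelet markers were called higher for 2 of 3 in WBIR and 3 of 3 in RCI, and stromal and endothelial markers for 1 and 3 of 5. Sham spleens thus carried the B cell markers that define the tissue. The 4 monocyte markers summed to 470 to 951 in Sham, 1614 to 1937 in WBIR and 2613 to 2732 in RCI, the last above all WBIR samples. Of all single genes, 27% did not overlap between RCI and WBIR. With vesicles the sums were 1333 to 2509 after WBIR and 1898 to 2816 after RCI, with overlap. In RCI against WBIR, the median log2 fold change of the 4 markers was 0.22, against 0.20 over all genes. Of the 4, 2 were called higher in each injury against Sham and 1, Ccr2, lower in RCI. The part of monocytes in the Ccl9 counts was not tested.

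Of 13 genes of type 2 responses and alternative macrophage activation, 9 were tested. In WBIR against Sham, Msr1, Pparg and Cd163 were called higher and Gata3, Il4ra, Irf4 and Stat6 lower. In RCI against Sham, Msr1 and Pparg were called higher and the same 4 genes lower, and without RCI replicate 3 there were 4 higher and 3 lower. Pparg, a lipid-sensing nuclear receptor, was higher by 3.49 ± 0.30 (SE, edgeR adjusted p 4.74e-07) in WBIR and by 3.20 ± 0.30 (adjusted p 7.99e-07) in RCI.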

How the data were processed

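Per the labels and the study's methods, the authors counted nCounter barcodes from spleen RNA and normalized them in nSolver. The deposited table holds raw counts per gene: all values are whole, and library totals span a 6.64-fold range. Counts were scaled to the geometric mean of 14 reference genes. These genes shifted too: relative to their own mean, 7 differed over 2-fold in WBIR and 7 in RCI against Sham (log2 from -1.70 for Polr1b to 2.83 for G6pdx in WBIR, and from -2.53 for Tubb5 to 3.07 for G6pdx in RCI). Of 547 endogenous genes, the 426 averaging 20 or more counts were tested with edgeR 4.0.16 in R 4.3.3 (robust quasi-likelihood, two-sided, 1 coefficient per group, all 15 samples, 10 residual degrees of freedom), with Benjamini-Hochberg adjustment in each of 10 comparisons and a threshold of 0.05. The common coefficient of variation was 33.1%. The fit was tested on simulated data. Background was not subtracted, since no control probe was used here. The 3 genes, the lists and the named genes were chosen with earlier results of these data known. Named genes were the 3 chemokines, Ccr3, the CC ligands called or among the 3 largest by absolute log2 fold change in RCI against WBIR and in WBIR against Sham, defining markers and the 4 genes with the highest r with each chemokine. Any other gene was named after its values were seen.

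Samples with the same replicate number had r of 0.677, 0.389 and 0.243 between treated and untreated groups in WBIR, and of 0.261, 0.331 and 0.522 in RCI, for their deviations from group means. Between all other groups, same-numbered samples had r of -0.494 to 0.255, and differently numbered samples were not compared. The numbers come from the titles and do not settle a pairing. They were taken to pair the samples in an added fit. Alternatives were TMM and median-of-ratios scaling, 7 reference genes, the total count, no filter, DESeq2 1.42.0, limma 3.58.1 on log2(scaled count + 10) or + 1, an unequal-variance test, only the groups compared, replicate blocks and leaving out each sample. The exclusion of RCI replicate 3 from list counts and named genes, and of Marco from the macrophage sums, was chosen after seeing the data. Where samples were left out, the filter on low counts stayed as set on all 15 samples. Promoter sequences and gene order came from RefSeq tables of GRCm38.p6, in which 2 of the 3 genes had a promoter entry.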

Additional observations from a re-analysis of the deposited data

How the results depend on the processing

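Over 30 member results and up to 28 alternatives each, 736 of 822 values kept their direction and side of the threshold, 29 lost the call, 9 gained it and 48 turned direction; the causes were not tested. Counting error limits Ccl24 in Sham (9 to 33 raw counts) and Ccl9 in WBIR (23 to 41) and in WBIR+MSC-EVs replicate 1 (21), and 3 samples a group limit the rest. The paired fit within each injury changed no call of the 3 genes. Median-of-ratios and TMM scaling moved the median of all genes in WBIR against Sham from -0.74 to -0.02 and -0.03 on the log2 scale, so falls under reference scaling are relative to those genes.

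The values of Ccl9 and Ccl6 against Sham are descriptions, and a lost call says only that the adjusted p was no longer under 0.05. Ccl9 in WBIR against Sham lost its call in the unequal-variance test with Benjamini-Hochberg adjustment (-2.06, adjusted p 0.0555), and leaving out single samples gave -2.43 to -1.63. In WBIR+MSC-EVs against Sham, Ccl9 lost its call with TMM (-0.82), median-of-ratios (-0.79) and total count scaling (-0.83), limma with a pseudocount of 10 (-1.03) or 1 (-1.13), the unequal-variance test with unadjusted p or adjustment (-1.14) and the replicate block over all groups (-1.17, adjusted p 0.058), and leaving out samples gave -1.54 to -0.74. Ccl6 turned higher with TMM, median-of-ratios and total count scaling in WBIR against Sham (0.16, 0.17 and 0.0449) and in WBIR+MSC-EVs against Sham (0.46, 0.49 and 0.35), where leaving out samples gave -0.44 to 0.30. Ccl24 in RCI against WBIR turned with TMM and median-of-ratios (-0.30 each), 7 reference genes (-0.28), total count (-0.32), limma with a pseudocount of 10 (-0.96) or 1 (-0.98), the unequal-variance test (-0.98), and the replicate block (-0.31), and leaving out samples gave -0.66 to 0.56.

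In the vesicle comparisons, leaving out samples gave Ccl24 values of -0.40 to 0.36 in RCI+MSC-EVs against WBIR+MSC-EVs, -0.17 to 0.49 in WBIR, -0.37 to 0.86 in RCI and -0.0534 to 0.56 on average. Ccl9 in WBIR passed the unequal-variance test at an unadjusted p (0.92, p 0.0234), a test without shared spread. Its average effect turned with TMM (-0.15), median-of-ratios (-0.15) and total count (-0.11), and leaving out samples gave -0.24 to 0.38. The difference between the vesicle effects on Ccl24 turned with TMM (0.00804), 7 reference genes (0.0349), total count (0.0729), limma with a pseudocount of 10 (0.89) or 1 (0.92), the unequal-variance test (0.92), the replicate block (0.22) and the paired fit (0.78), and leaving out samples gave -0.63 to 0.60. For Ccl6, leaving out samples gave -0.0898 to 0.72 in RCI and -0.50 to 0.31 for the difference.

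Genes called in RCI against WBIR numbered 3, but 28 with DESeq2, 45 in the unadjusted unequal-variance test, 1 when it was adjusted, 1 with TMM, median-of-ratios or total count scaling, 0 with only the groups compared and 1 to 15 without single samples (15 without RCI replicate 1, 8 without WBIR replicate 1, 7 without Sham replicate 2 and 1 without WBIR replicate 3). The unadjusted test called 71 in RCI+MSC-EVs against WBIR+MSC-EVs, 17 and 15 in the vesicle comparisons, 15 on average and 8 for the difference. Against Sham the adjusted test called 167 genes for WBIR and 105 for RCI, and with vesicles 155 and 149.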

Other observations

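Counts of each chemokine per 1000 counts of the 9 summed macrophage markers, a ratio chosen after seeing the data and given with no test, ordered the groups differently from the scaled counts. Ccl24 had 2.15, 3.95 and 7.41 per 1000 in Sham as its lowest, median and highest sample, and medians of 76.3 in WBIR and 86 in RCI, or with vesicles 92.2 and 79.7. RCI replicate 3 lay at 3.88, inside the Sham range, but Marco made up 64.4% of its marker sum, and without Marco it lay at 10.9, above the Sham range of 2.29 to 8.57. Ccl9 had its highest median in Sham on this ratio, at 16.1, 34.7 and 35.4, against 0.659 to 1.64 in WBIR and 6.22 to 20.9 in RCI, or with vesicles 1.29 to 2.75 and 4.94 to 12.3. All RCI samples stood above all WBIR samples on it, as they did in scaled counts. Without Marco, the highest RCI sample was at 58.7, above the Sham range of 17.2 to 41, and the RCI median was 11.8. Ccl6 had 21.2 to 108 in Sham, 4.07 to 5.9 in WBIR and 5.2 to 17.6 in RCI, so that its Sham samples were above all irradiated ones, as they also were without Marco (at least 22.6 in Sham, and at most 20.1 after irradiation). The markers are expressed by other myeloid cells too, and the irradiated spleens differed in most cell type markers.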
